A study of Mus musculus with 6 samples.

Results

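Oligodendrocyte precursor cells (OPCs) from wild-type (WT) neonatal mouse spinal cord were described here from 3 RNA-seq libraries, taken by their titles from a series of 6 libraries. The other 3 libraries, from GDE3 knockout cells, were not used, and no genotype comparison was made. The WT cells came from C57BL/6 pups at postnatal day 0.5 and were purified with magnetic beads against A2B5, a ganglioside epitope on the surface of glial precursors. They were plated on poly-L-lysine and laminin and grown for 16 h in B27 and N2 supplements with forskolin at 5 µM and the growth factors CNTF and PDGF, each at 10 ng/mL. The values are therefore those of freshly plated cells in a medium that drives proliferation, and not of cells in the cord. The labels do not say whether the 3 libraries came from separate pups or litters, so the spread between them may be partly technical.

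OPCs arise from ventricular zone progenitors of the embryonic cord, where the transcription factor Olig2 specifies the motor neuron and oligodendrocyte domain. They migrate and divide under PDGF, which acts through the receptor Pdgfra, and they carry the chondroitin sulfate proteoglycan Cspg4, known as NG2. On leaving the cell cycle they pass through a premyelinating stage, marked by Gpr17 and Bcas1, before they express the genes of compact myelin.

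Each library was a separate transcript assembly with its own FPKM values, which count sequenced fragments relative to transcript length and to the fragments mapped in the library. Gene values are the assembled FPKM (transcripts of 300 nt or more) averaged over a gene's annotated exonic bases, for 47691 genes, so a gene of which only a piece was assembled has a value below that of the piece. The assemblies held 56807, 35036 and 32693 transcripts in replicates 1, 2 and 3. The assembly of replicate 1 stood apart, with 36.8% of its transcripts under 300 nt against 3.65% and 2.25%. Of its multi-exon transcripts, 26.6% had exactly the introns of an annotated transcript, against 47.2% and 53.0% in replicates 2 and 3. Relative depth, read from coverage per FPKM, was 0.760, 0.960 and 1 of the deepest. Over the 11047 genes at 1 FPKM or more in all 3 libraries, log2(FPKM + 1) correlated across genes at r = 0.953 between replicates 1 and 2, 0.942 between 1 and 3, and 0.967 between 2 and 3 (genes are not independent replicates). Gdpd2, which encodes GDE3, was low in all 3 libraries, listed at 0, 2.79 and 2.85 FPKM. In replicate 1 it was present only in a shorter fragment, with a value of 2.05 FPKM when no minimum length was set.

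The most abundant genes of the WT cells were those of translation, the cytoskeleton and protein folding. The number of genes at 1 FPKM or more was 11799, 12115 and 12132 in replicates 1 to 3, and 11047 passed in all 3. By the median of the 3 libraries, 5958 genes reached 10 FPKM, 514 reached 100 FPKM and 11 reached 1000 FPKM. The 100 most abundant genes of each library held 25.1%, 20.0% and 19.3% of its summed gene FPKM, which gives 21.5% ± 3.15 (SD, n = 3). Replicate 1 lay above the other two, and 76 genes were among the top 100 of all 3 libraries. With fragments under 300 nt included, the mean share was 62.8%.

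**Figure D1:**
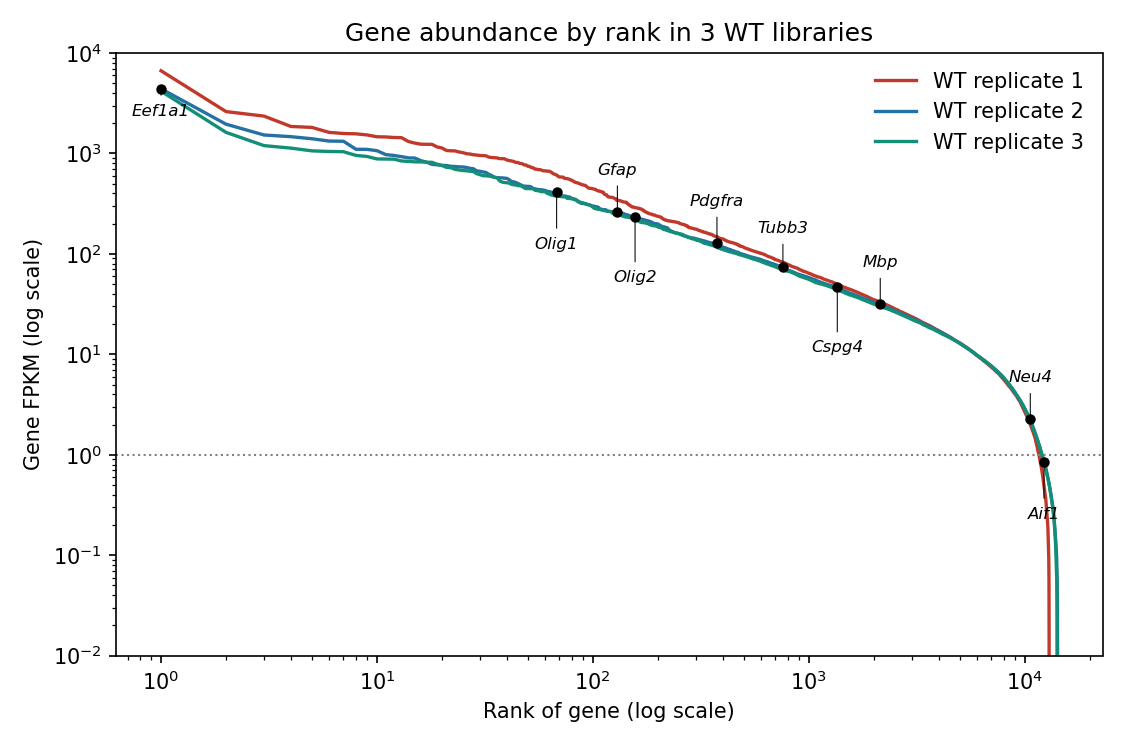
Gene FPKM (log scale) against rank of the gene (log scale) in each WT library, with 10 named genes placed by their median value and the dotted line at 1 FPKM. The 3 curves run close together below 10 FPKM, and that of replicate 1 lies above the others among the most abundant genes.

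Eef1a1, the elongation factor that brings aminoacyl-tRNA to the ribosome, was the most abundant gene in all 3 libraries. It lies at chr9:78478449-78489151 on GRCm38 (mm10), and its values were 6655, 4406 and 4166 FPKM. Its annotated transcript Eef1a1-201 was also the most abundant assembled transcript with annotated introns in each library, at 7066, 4852 and 4429 FPKM. Of the 30 most abundant genes, 17 matched the naming pattern for cytosolic ribosomal proteins, led by Rplp1 (2611, 1956 and 1046 FPKM) and Rps29 (2353, 1527 and 1621 FPKM). Rpl41, which encodes the shortest ribosomal protein, varied more, at 1855, 1469 and 384 FPKM. Rps3a1, at 1060, 760 and 781 FPKM, also encodes a ribosomal protein but lay outside the naming pattern. Ribosomal protein genes have many processed copies in the genome, and reads may be split among them.

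The other genes of the top 30 included members of the cytoskeleton, protein folding, iron storage and energy supply. Actb and Actg1, the cytoplasmic actins, stood at 1568, 1400 and 1197 FPKM and at 1236, 574 and 1061 FPKM. Tubb5, a beta-tubulin of dividing cells, had 886, 903 and 818 FPKM. The chaperones Hsp90ab1 and Hspa8 had 1466, 1322 and 1130 FPKM and 1529, 900 and 933 FPKM. These genes were within the top 15 by median value, ahead of every gene of the OPC list. Ckb, brain creatine kinase, which buffers ATP, had rank 6 by median value, at 1580, 1329 and 833 FPKM. The iron storage protein ferritin was represented by its light chain Ftl1, at 832, 1066 and 825 FPKM, and its heavy chain Fth1, at 987, 771 and 665 FPKM. Eef2, which moves the ribosome along the message, reached 1019, 758 and 676 FPKM, and Atp5b, the beta subunit of mitochondrial ATP synthase, reached 906, 725 and 660 FPKM. Tpt1, a translationally controlled protein, closed the 30 at 1268, 572 and 722 FPKM.

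By gene group, 53 of the 100 most abundant genes matched the naming pattern for cytosolic ribosomal proteins, which leaves out Rps3a1. Another 9 were cytoskeletal, 5 were nuclear-encoded subunits of oxidative phosphorylation and 4 were chaperones. Together the 81 quantified genes of the ribosomal naming pattern held 15.9%, 11.8% and 11.3% of summed gene FPKM. Replicate 1 was above both other libraries for 70 of the 81, against 40.9% of all 12092 genes with a median of 1 FPKM or more. Of the 81, only Rpl3l, Rpl10l and Rpl39l, tissue-restricted paralogues of ribosomal proteins, were listed at 0 in all 3. The 82 quantified subunits of oxidative phosphorylation had a list median of 108 FPKM, and all 4 members listed at 0 in every library (Cox7a1, Cox7b2, Cox8b and Cox8c) are paralogues restricted to muscle, testis or other tissues.

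Protein-coding genes held 98.1%, 97.6% and 97.7% of summed gene FPKM. Of 21545 quantified protein-coding genes, 10764 were at 1 FPKM or more in all 3 libraries, which is 50.0%. Of 9721 long noncoding genes, 165 passed, which is 1.70%, and they held 0.706%, 1.19% and 0.994% of summed FPKM. Pseudogenes held 1.16%, 1.08% and 1.20%, with 102 of 12509 passing. Among protein-coding genes, those of the top 100 had a median of 1158 exonic bases. The next genes down to rank 1000 had 2055 and the lower-ranked expressed genes had 3624, so the most abundant genes were short. A gene value is an average over annotated exonic bases, and unassembled bases lower it. The relation of rank to length may therefore be partly built into the measure.

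The OPC genes were expressed broadly and at high rank. Of 32 genes on the OPC list, 31 were at 1 FPKM or more in all 3 libraries and 11 were among the 1000 most abundant genes. The list median was 38.7 FPKM. On a scale where 100 is the most abundant of the 12092 expressed genes, the list median stood at the 86.0, 87.5 and 84.6 percentile in replicates 1 to 3, or 86.0 ± 1.45 (SD, n = 3).

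The transcription factor Olig1, which acts with Olig2 in oligodendrocyte development, led the list at 513, 417 and 356 FPKM, rank 68 of all genes and the one OPC gene in the top 100. Olig2 (chr16:91225457-91228677, plus strand) was at 279, 232 and 83.3 FPKM, rank 157. Sox10, which maintains oligodendroglial identity and drives myelin genes, was at 198, 211 and 82.3 FPKM. Replicate 3 was the lowest for these 3 genes. For Olig2 the assembled part covered 95.5%, 94.8% and 95.2% of the exonic bases, so the low value of replicate 3 went with a like assembled extent. For Sox10 the extent in replicate 3 was 55.0%, and over the assembled bases alone the values were 202, 239 and 150 FPKM. Among other factors, Sox8 stood at 52.8, 45.9 and 37.3 FPKM, Sox6 at 46.6, 40.2 and 41.7 FPKM and Nkx2-2 at 47.7, 43.3 and 22.0 FPKM. These 3 factors lay below Olig2 in every library, and Sox6 varied least among them.

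Pdgfra, the receptor for the PDGF in the medium, lies at chr5:75152292-75198215 on the plus strand and was at 131, 128 and 76.0 FPKM, or 112 ± 30.9 (SD, n = 3), rank 376. Its assembled extent was 78.9%, 79.6% and 39.9%. Over assembled bases only, the values were 166, 161 and 190 FPKM, so replicate 3 was the lowest by the one measure and the highest by the other. An assembled transcript with the introns of Pdgfra-201 was present in all 3 libraries. Cspg4 (chr9:56865033-56899870, plus strand) was at 47.0, 46.5 and 37.5 FPKM, or 43.7 ± 5.33 (SD, n = 3), rank 1357, with 99.9% to 100% of its exonic bases assembled. The defining markers Pdgfra, Olig2 and Cspg4 were thus all present in each library, at percentiles of 96.9, 98.7 and 88.8.

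Surface and secreted genes also stood high in the list. Serpine2, a secreted inhibitor of thrombin and plasminogen activators, had 237, 214 and 233 FPKM. Ptprz1, a receptor phosphatase carrying chondroitin sulfate, had 141, 146 and 146 FPKM, and Lhfpl3, a tetraspan membrane protein, had 114, 101 and 128 FPKM. All 3 varied less between libraries than Olig2 and Sox10. Cacng4, an AMPA receptor auxiliary subunit, was at 105, 105 and 66.3 FPKM. At the lower end, Emid1 had 5.36, 4.27 and 4.58 FPKM, and Susd5 had 0.114, 1.15 and 1.24 FPKM. Susd5 was the one member below 1 FPKM in any library, and in replicate 1 only 9.77% of its exonic bases were assembled.

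**Figure D2:**
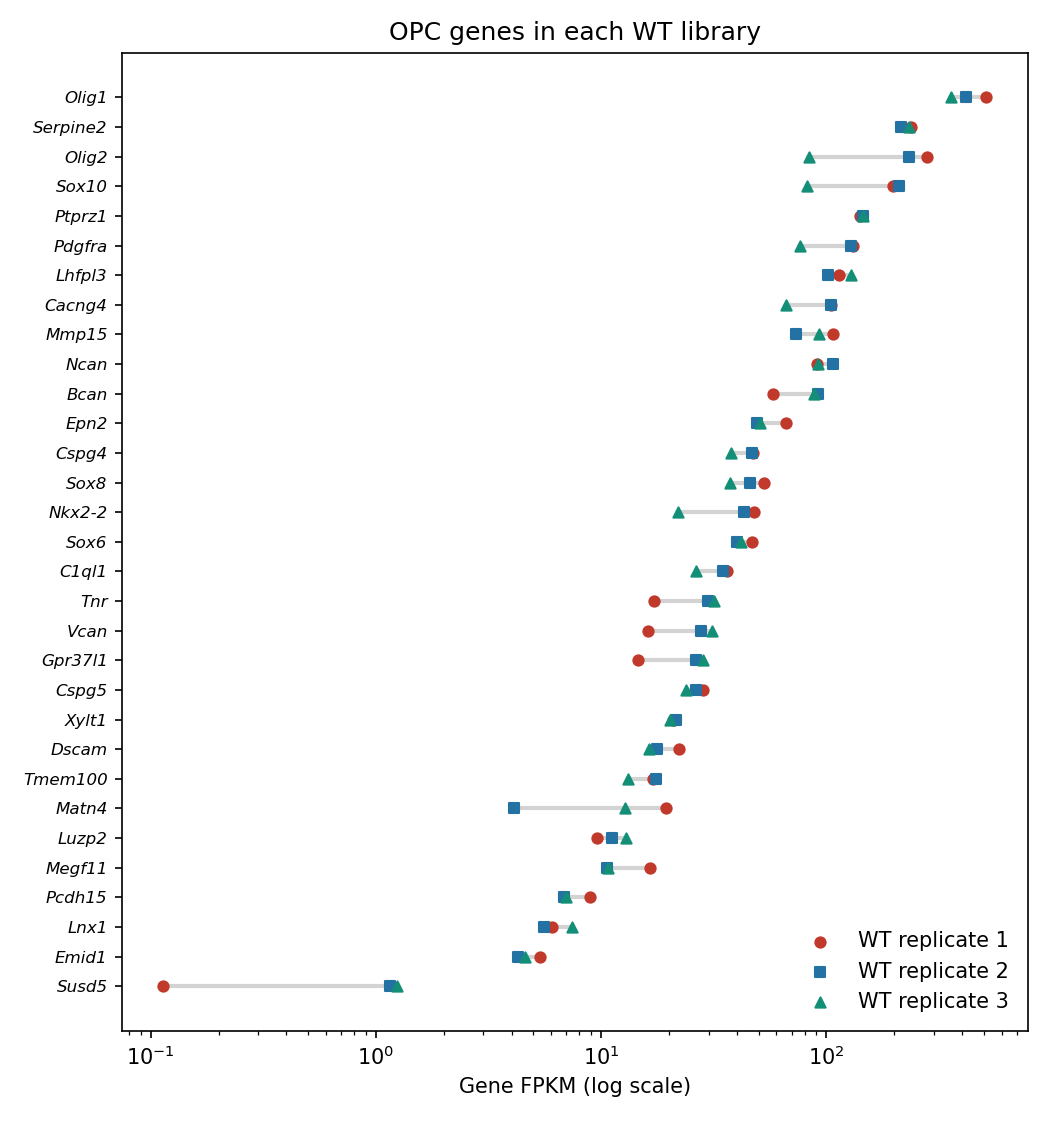
Gene FPKM (log scale) of 31 of the 32 OPC genes in each WT library, ordered by median value, with grey lines from the lowest to the highest library. Olig1 stands at the top at 356 to 513 FPKM and Susd5 at the bottom, and replicate 3 is the lowest of the 3 libraries for Olig2, Sox10, Pdgfra and Nkx2-2.

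Markers of the premyelinating stage were uneven. Of 15 genes, 13 were at 1 FPKM or more in all 3 libraries, with a list median of 5.73 FPKM. Bcas1, a marker of newly formed oligodendrocytes, had 215, 245 and 215 FPKM, rank 178 and above Pdgfra in every library. Fyn, a Src-family kinase needed for process outgrowth, had 132, 130 and 123 FPKM. Gpr17, a receptor of the transition stage, had 95.8, 117 and 101 FPKM. The other defining markers lay far lower, with Bmp4 at 4.46, 5.48 and 4.11 FPKM and the sialidase gene Neu4 at 2.55, 2.16 and 2.25 FPKM. Tcf7l2 and Enpp6, which also mark differentiating cells, were at 5.73, 6.24 and 4.13 FPKM and at 7.12, 7.28 and 7.51 FPKM.

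Myelin genes ranged from rank 283 to the edge of detection, with 17 of 20 at 1 FPKM or more in all 3 libraries and a list median of 8.85 FPKM. Cnp, a phosphodiesterase of noncompact myelin, was at 156, 153 and 157 FPKM, among the most even of the 500 most abundant genes. Cldn11, a tight junction protein of myelin, was at 66.4, 66.1 and 81.4 FPKM, and Mag, an adhesion molecule of the innermost myelin layer, at 24.7, 38.8 and 47.4 FPKM. Mbp, which compacts the myelin membrane, was at 31.6, 32.7 and 26.7 FPKM over its annotated exons. Only 15.6%, 16.2% and 15.3% of these bases were assembled, and over the assembled bases alone Mbp was at 203, 202 and 175 FPKM. At the low end, Mog, on the outer myelin surface, was listed at 0, 5.09 and 5.90 FPKM, Opalin was at 1.12, 1.04 and 1.29 FPKM and Ermn was listed at 0, 0.939 and 1.50 FPKM. Gpr37 and Aspa reached at most 3.58 FPKM in any library.

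The assembled transcripts also showed which exons these cells used. For each pair of alternative forms, the FPKM of the assembled transcripts with each form was summed, and the share of the first form was taken over both.

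Pkm, the last enzyme of glycolysis, uses either of a pair of exons of equal length, M1 in many differentiated tissues and M2 in proliferating cells. Both exons lie on the plus strand, M1 at chr9:59675029-59675195 and M2 at chr9:59675568-59675734 (GRCm38). The exons are shown 5′ to 3′ from the GENCODE transcripts, and capitals mark the 64 of 167 bases at which they differ.
Pkm M1 exon: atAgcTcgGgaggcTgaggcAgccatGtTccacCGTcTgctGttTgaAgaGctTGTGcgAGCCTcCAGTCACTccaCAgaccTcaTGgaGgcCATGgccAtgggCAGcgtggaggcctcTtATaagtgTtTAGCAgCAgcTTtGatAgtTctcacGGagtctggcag
Pkm M2 exon: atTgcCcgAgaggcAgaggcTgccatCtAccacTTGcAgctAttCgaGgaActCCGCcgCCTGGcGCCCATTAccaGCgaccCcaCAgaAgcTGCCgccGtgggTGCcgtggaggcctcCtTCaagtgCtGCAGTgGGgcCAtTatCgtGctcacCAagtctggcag
Transcripts with the M2 exon summed to 466, 513 and 378 FPKM. Those with the M1 exon summed to 79.1 FPKM in replicate 1 and were not assembled in replicates 2 and 3, so M2 took 85.5%, 100% and 100% of Pkm.

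The AMPA receptor subunits Gria2 and Gria4 each carry a flip or a flop exon of 115 bases, which sets how fast the channel desensitises. On the minus strand, the Gria2 flip exon is at chr3:80690404-80690518 and the flop exon at chr3:80691320-80691434. Capitals mark the 36 bases at which the exons differ.
Gria2 flip exon: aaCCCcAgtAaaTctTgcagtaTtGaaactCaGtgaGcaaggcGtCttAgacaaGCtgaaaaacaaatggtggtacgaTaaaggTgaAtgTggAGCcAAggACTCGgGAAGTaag
Gria2 flop exon: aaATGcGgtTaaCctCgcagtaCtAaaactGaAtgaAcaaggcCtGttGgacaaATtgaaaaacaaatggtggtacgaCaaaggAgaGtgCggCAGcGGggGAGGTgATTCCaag
In Gria4 (flip at chr9:4427030-4427144, flop at chr9:4432773-4432887) the exons differ at 31 bases, again in capitals.
Gria4 flip exon: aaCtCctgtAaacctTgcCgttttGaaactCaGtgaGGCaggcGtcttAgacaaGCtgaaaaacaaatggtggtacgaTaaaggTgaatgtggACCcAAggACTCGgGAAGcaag
Gria4 flop exon: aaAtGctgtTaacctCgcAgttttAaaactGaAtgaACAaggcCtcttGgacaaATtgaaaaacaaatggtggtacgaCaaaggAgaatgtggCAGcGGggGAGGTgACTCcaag
Gria2 transcripts with the flip exon alone summed to 18.8, 17.6 and 11.8 FPKM. Those with the flop exon alone reached 3.11 FPKM in replicate 2 and were not assembled in the others, and replicate 3 held a transcript with both exons at 3.49 FPKM. Gria4 transcripts had the flip exon at 9.55, 13.8 and 13.0 FPKM, and the flop exon was not assembled in any library. The flip forms therefore made up all informative Gria4 and, leaving out the transcript with both exons, 85.0% to 100% of Gria2.

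Adhesion and matrix genes had further alternative exons. In Ncam1, the neural cell adhesion molecule, the exon of 30 bases called VASE (chr9:49550540-49550569, minus strand) was skipped in all assembled transcripts across it, at 62.0, 67.6 and 71.6 FPKM. It is shown in lower case because it has no counterpart to compare.
Ncam1 exon VASE: gcatcgtggactcgaccagagaagcaagag
The exon of 801 bases that makes the longest form, NCAM180, was in 40.2% and 37.0% of informative Ncam1 FPKM in replicates 2 and 3, and no transcript of replicate 1 spanned it. Vcan, the proteoglycan versican, had its alpha glycosaminoglycan exon of 2880 bases in and its beta exon of 5217 bases out in all informative transcripts, at 30.5, 46.6 and 53.0 FPKM, which is the arrangement of the V2 form of the nervous system. Transcripts holding only a part of the beta exon do not count as informative, so its absence from all Vcan RNA is not shown. In Mag, the exon of 45 bases that makes the short cytoplasmic form was in 28.5%, 20.6% and 22.5% of FPKM, and the long form took the rest. In Tnc, the matrix glycoprotein tenascin C, an exon of 273 bases was included in 59.2%, 63.2% and 73.5%.

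Ptprz1 and Nfasc differed more between libraries. The long exon 12 of Ptprz1, of 3547 bases and carrying most chondroitin sulfate attachment sites, took 100%, 80.4% and 100% of FPKM, with the short receptor form assembled only in replicate 2. The exon of 21 bases (chr6:23024714-23024734, plus strand) was in 100%, 34.8% and 18.4%, a spread of 51.1% ± 43.2 (SD, n = 3).
Ptprz1 exon of 21 bases: acactgaaagagttttaccag
In Nfasc, the adhesion protein neurofascin, the exon of 205 bases that belongs to the glial form was in 21.4%, 46.7% and 53.9%. The exon of 237 bases in the mucin-like part of the neuronal form was not included in any library, where transcripts without it summed to 20.7, 31.3 and 32.9 FPKM. For Bcan, the proteoglycan brevican, the transcript Bcan-201 was matched in all 3 libraries at 47.2, 30.2 and 63.1 FPKM. For Cntfr, the CNTF receptor alpha chain, Cntfr-203 was matched in replicates 1 and 3 at 9.58 and 13.6 FPKM.

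**Figure D3:**
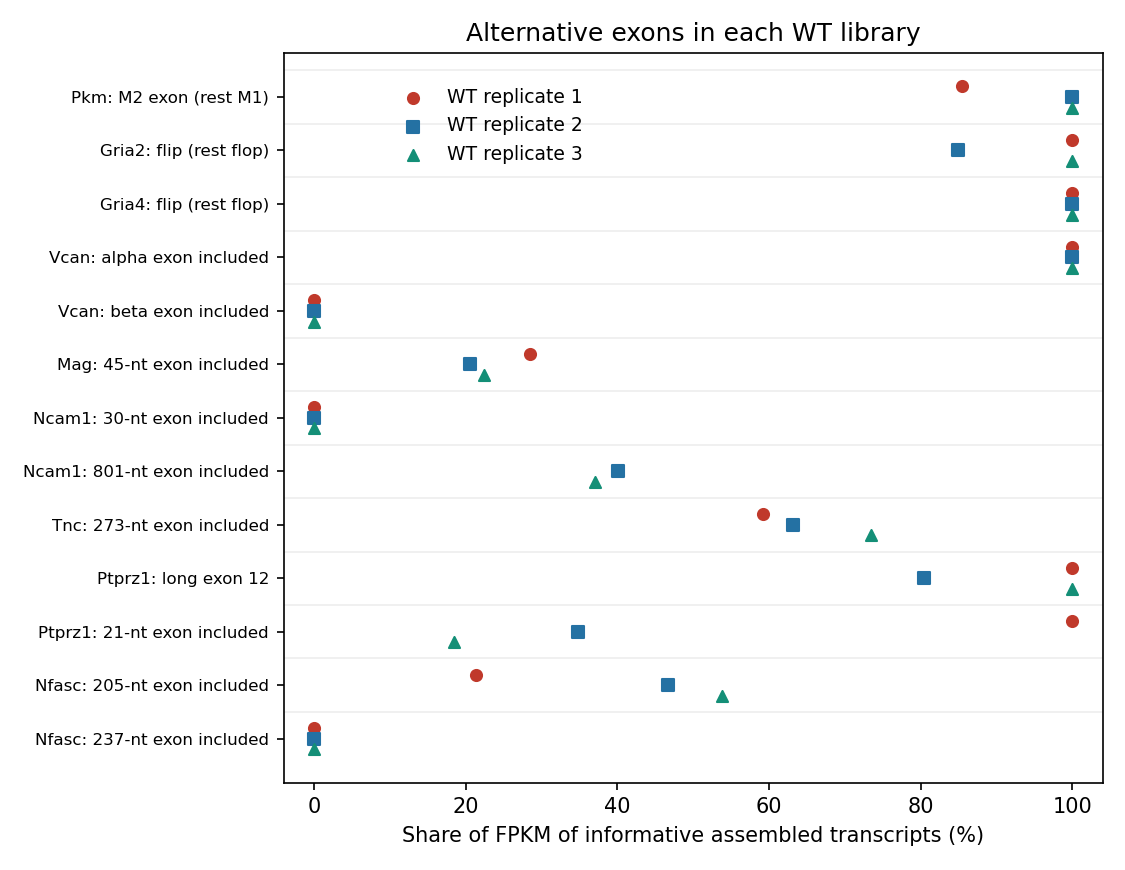
Share of the FPKM of informative assembled transcripts (%) that had the named form of 13 alternative exons, with 1 point for each WT library. Flip exons and the Pkm M2 exon lie between 85.0% and 100%, the Vcan alpha exon lies at 100%, the Vcan beta, Ncam1 30-nt and Nfasc 237-nt exons lie at 0%, and the Ptprz1 21-nt exon runs from 18.4% to 100%.

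Genes of other cell types were measured beside the OPC genes. In bulk RNA, fewer cells of a type and less RNA per cell cannot be told apart. Radial glia and astrocyte lists were close to the OPC list, with medians of 29.5 and 26.5 FPKM against 38.7. Of the radial glia genes, the intermediate filament Vim had 668, 647 and 582 FPKM, the lipid-binding Fabp7 had 318, 370 and 478 FPKM, and Nes had 51.1, 53.0 and 50.0 FPKM. Sox2, a factor of neural progenitors, had 84.0, 86.3 and 88.8 FPKM. These genes are also known in OPCs, and 17 of 18 members were at 1 FPKM or more in all 3 libraries, while Nr2e1 was listed at 0 in each.

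Of the astrocyte genes, 19 of 20 were at 1 FPKM or more in all 3 libraries. Gfap, the astrocyte intermediate filament, was at 32.1, 263 and 268 FPKM, and the water channel Aqp4 was at 6.02, 46.1 and 59.5 FPKM. Aldh1l1, a folate enzyme of astrocytes, was at 16.5, 38.6 and 33.9 FPKM, while Glul, glutamine synthetase, was even at 124, 135 and 106 FPKM. Replicate 1 was below both other libraries for 15 of 20 astrocyte genes, against 37.3% of all expressed genes. The summed level of the list was 520 FPKM in replicate 1 and 1071 and 1012 FPKM in the others, while the OPC list summed to 2507, 2344 and 1914 FPKM. Summed FPKM over all genes was itself highest in replicate 1, at 365629, 309564 and 298483. As a share of it, the astrocyte list held 0.142%, 0.346% and 0.339%. The OPC list held 0.686%, 0.757% and 0.641%, so by share replicate 1 was not the highest for OPC genes. The part of astrocytes in the WT values was not tested.

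Neuronal genes had a list median of 7.84 FPKM, and 16 of 20 were at 1 FPKM or more in all 3 libraries. Gap43, a growth cone protein also made by glial precursors, had 245, 217 and 190 FPKM, and the tubulin Tubb3 had 90.5, 74.7 and 61.6 FPKM. Dcx and Elavl3, made by young neurons, had 12.3, 12.6 and 16.5 FPKM and 17.4, 23.6 and 20.2 FPKM. The neurofilament genes Nefl and Nefm were highest in replicate 1, at 58.8, 9.26 and 9.67 FPKM and at 34.5, 7.91 and 6.97 FPKM. Stmn2 followed them, at 68.0, 13.4 and 10.6 FPKM. Chat, the enzyme of motor neuron transmitter synthesis, was listed at 0 in all 3. Isl1, a transcription factor not confined to motor neurons, was listed at 1.51, 0 and 0 FPKM. Replicate 1 was above both others for 13 of the 20 genes, against 40.9% of all expressed genes.

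Microglial genes were detected with a list median of 5.30 FPKM, 12 of 20 members passing in all 3 libraries. Cd68, a lysosomal protein of phagocytes, was at 31.7, 115 and 93.7 FPKM, Lyz2 at 85.5, 46.3 and 76.3 FPKM and Ctss at 49.0, 33.9 and 58.3 FPKM. The defining markers were lower, with C1qa at 8.87, 6.11 and 8.12 FPKM, C1qb at 10.9, 8.77 and 8.65 FPKM and Aif1 listed at 1.16, 0 and 0.857 FPKM. P2ry12 and Siglech were listed at 0 in all 3 libraries, and Tmem119 was at 0.522, 0.631 and 0.594 FPKM. The genes of resting microglia were thus at or near 0, beside lysosomal genes at much higher levels.

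The remaining lists lay lower. Endothelial and pericyte genes had a list median of 1.62 FPKM, and the endothelial markers Pecam1 and Cdh5 were at 2.34, 0.482 and 0.665 FPKM and at 4.53, 1.76 and 1.94 FPKM. Of the meningeal genes, the collagens Col1a1 and Col3a1 reached 11.2, 24.4 and 23.7 FPKM and 12.7, 30.4 and 28.4 FPKM. Of the Schwann and neural crest genes, Pmp22, a membrane protein of peripheral myelin, was at 51.2, 42.7 and 44.9 FPKM, while the list median was 2.15 FPKM. Replicate 1 was above both others for 9 of these 12 genes, against the same 40.9%. Of 9 quantified erythroid genes 7 were listed at 0 in every library, but the beta globin gene Hbb-bs was at 165, 37.5 and 21.5 FPKM. Among ependymal genes the ciliogenesis factor Foxj1 was at 6.76, 19.5 and 10.6 FPKM and the list median was 0.853 FPKM.

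**Figure D4:**
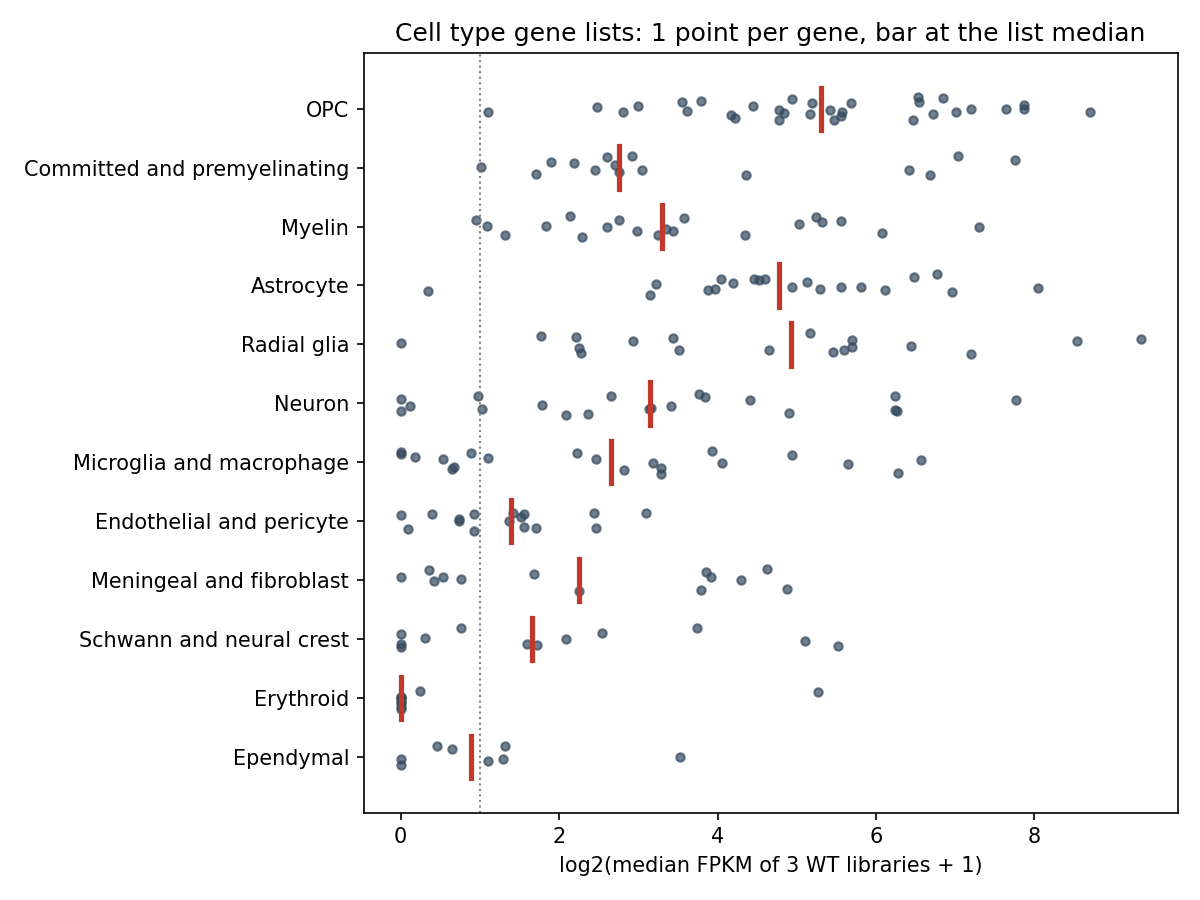
Median FPKM over the 3 WT libraries, as log2(FPKM + 1), of each gene in the 12 cell type lists, with 1 point per gene (spread vertically for visibility), the red bar at the list median and the dotted line at 1 FPKM. OPC, radial glia and astrocyte lists have the highest medians, at 38.7, 29.5 and 26.5 FPKM, and the endothelial, erythroid and ependymal lists the lowest.

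The receptors for the factors in the medium were present at unequal levels. Beside Pdgfra, the related receptor Pdgfrb was at 3.83, 5.50 and 4.51 FPKM. The CNTF receptor has a binding chain, Cntfr, at 14.9, 16.2 and 13.2 FPKM, and the signalling chains Il6st, at 17.2, 15.0 and 16.3 FPKM, and Lifr, at 2.12, 2.58 and 2.77 FPKM. Lifr was the lowest of the 3 chains in each library. Forskolin acts on adenylyl cyclases, of which Adcy6 was highest at 7.85, 9.55 and 8.62 FPKM, followed by Adcy5 at 6.87, 6.36 and 5.91 FPKM. In all, 12 of the 14 receptor and cyclase genes were at 1 FPKM or more in all 3 libraries, and Adcy4 and Adcy7 were not.

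Genes that respond to growth factor signalling were high, with 18 of 19 at 1 FPKM or more in all 3 libraries and a list median of 21.2 FPKM. Ccnd1, the G1 cyclin, was at 329, 333 and 264 FPKM, rank 95. Etv5, a transcription factor induced by ERK signalling, was at 98.0, 85.5 and 75.3 FPKM, and Myc was at 94.5, 84.1 and 50.8 FPKM. The immediate early genes Fos and Jun were at 51.5, 42.9 and 36.7 FPKM and at 98.6, 78.6 and 21.6 FPKM. For Jun only 35.4% of exonic bases were assembled in replicate 3, against 94.1% and 95.7%. Fosb was the one member under 1 FPKM by median, at 4.05, 0.999 and 0.649 FPKM. The ERK feedback inhibitors Spry2, Spry4 and Dusp6 were at 50.3, 46.8 and 39.6 FPKM, at 25.3, 20.0 and 18.4 FPKM and at 22.4, 20.2 and 18.2 FPKM. Of the 19 genes, 14 were highest in replicate 1, against 40.9% of all expressed genes. As a share of summed gene FPKM, the list held 0.291%, 0.297% and 0.236%, so by share replicate 1 was not above replicate 2.

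All 18 S phase genes and all 19 genes of G2 and mitosis were at 1 FPKM or more in all 3 libraries. The S phase list had a median of 59.7 FPKM and a percentile of 91.6 ± 0.808 (SD, n = 3). The helicase subunit Mcm7 was the most even of the 500 most abundant genes at 103, 103 and 102 FPKM, and Mcm2 was at 93.7, 83.8 and 68.3 FPKM. Rrm2, of ribonucleotide reductase, was at 136, 78.0 and 126 FPKM, and the sliding clamp Pcna at 239, 231 and 83.8 FPKM. For Rrm2, 55.3% of exonic bases were assembled in replicate 2, against 96.9% and 98.3% in replicates 1 and 3. Over assembled bases Rrm2 was at 140, 141 and 128 FPKM. The G2 and mitosis list had a percentile of 66.9 in replicate 1 and of 85.7 and 88.6 in replicates 2 and 3. Top2a, which untangles chromosomes, was at 63.9, 130 and 158 FPKM, the proliferation marker Mki67 at 12.1, 67.4 and 68.4 FPKM and the mitotic kinase Cdk1 at 22.6, 33.5 and 38.9 FPKM. The assembled extent of Cdk1 was 59.5%, 22.0% and 23.6%, and over assembled bases it was at 38.1, 152 and 164 FPKM. Replicate 1 was below both others for 18 of the 19 genes of G2 and mitosis, with Birc5 as the exception, against 37.3% of all expressed genes. The assembled extent of Birc5 was 27.0%, 16.7% and 16.7%, and over assembled bases it was at 61.9, 59.2 and 69.5 FPKM. Of the S phase genes, replicate 1 was below both others for 1 of 18 and above both for 10 of 18, against 40.9% of all expressed genes above both. By share of summed gene FPKM, the S phase list held 0.320%, 0.333% and 0.321%, with replicate 1 not above the others.

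Lipid synthesis genes were abundant. All 26 genes of sterol and fatty acid synthesis were at 1 FPKM or more in all 3 libraries, 19 were among the 1000 most abundant genes, and the list median was 94.7 FPKM. Hmgcs1, which makes the HMG-CoA that enters the sterol pathway, was at 367, 317 and 344 FPKM, and Fdps, of isoprenoid synthesis, at 364, 247 and 278 FPKM. Sqle, which oxidises squalene, was at 159, 118 and 130 FPKM and Fasn, fatty acid synthase, at 127, 124 and 109 FPKM. Scd2, the brain form of stearoyl-CoA desaturase, was at 681, 189 and 694 FPKM, but 30.2% of its bases were assembled in replicate 2 and its values over assembled bases were 715, 627 and 708 FPKM. Scd1 was among the most even abundant genes at 126, 124 and 122 FPKM.

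Glycolysis genes had a list median of 95.2 FPKM, 15 of 16 passing in all 3 libraries. Pkm was at 418, 368 and 272 FPKM, Eno1 at 393, 320 and 244 FPKM and Aldoa at 457, 231 and 159 FPKM, each highest in replicate 1. Gapdh, with many processed copies in the genome, was listed at 0, 89.9 and 60.4 FPKM, and in replicate 1 it was present only in short fragments, at 391 FPKM without a minimum length. All 15 chaperone genes were among the 1000 most abundant genes, with a median of 226 FPKM.

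The matrix and secreted genes had a list median of 40.2 FPKM, and 28 of 29 were at 1 FPKM or more in all 3 libraries. The lipid carrier Apoe was at 205, 293 and 232 FPKM, the protease inhibitor Cst3 at 216, 213 and 206 FPKM and the collagen-binding Sparc at 177, 194 and 165 FPKM. The hyaluronan-binding proteoglycans Ncan, Bcan and Vcan stood at 90.6, 107 and 91.5 FPKM, at 58.0, 91.7 and 87.7 FPKM and at 16.2, 27.6 and 30.9 FPKM. Ncan and Bcan lay above Vcan in every library, and Vcan's assembled extent was 53.1% in replicate 1. Hapln1, the link protein that joins such proteoglycans to hyaluronan, was listed at 0 in all 3 libraries.

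Glutamate receptor subunits were lower, with a list median of 3.88 FPKM and 11 of 18 genes at 1 FPKM or more in all 3 libraries. The kainate receptor subunits Grik3 and Grik5 were highest, at 35.7, 37.0 and 33.1 FPKM and at 34.9, 31.9 and 30.7 FPKM. Of the AMPA receptor subunits, Gria3 was at 10.7, 12.7 and 14.8 FPKM, Gria4 at 8.83, 9.72 and 11.0 FPKM, Gria2, which makes the channel impermeable to calcium, at 4.72, 7.05 and 11.3 FPKM, and Gria1 at 2.03, 2.51 and 2.16 FPKM. Gria3 and Gria4 lay above Gria1 in every library, with no overlap of their ranges. These values are averages over all exonic bases, and for Gria2 they differ from the transcript values. Transcripts with the flip exon alone summed to 18.8, 17.6 and 11.8 FPKM for Gria2, and to 9.55, 13.8 and 13.0 FPKM for Gria4. In replicates 1 and 2, Gria2 was thus below Gria4 by gene value but above it by flip transcripts. Grin1, the obligate NMDA receptor subunit, was at 4.60, 3.96 and 2.77 FPKM, Grin3a at 7.45, 6.49 and 7.22 FPKM, and Grin2b and Grin2c were listed at 0 in all 3.

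Positional genes of the spinal cord were expressed in the cultured cells. Hox genes, which give cells their place along the body axis through their order in 4 clusters, were detected from paralogue group 2 to 12. Of 39 genes, 26 were at 1 FPKM or more in all 3 libraries, and 4 were listed at 0 in all 3 (Hoxb1, Hoxd1, Hoxd12 and Hoxd13). Hoxa7 was the highest at 72.6, 60.9 and 47.4 FPKM, and Hoxa5 followed at 17.5, 24.3 and 23.7 FPKM, then Hoxa6 at 17.5, 24.4 and 18.3 FPKM. Summed over clusters, group 7 held 91.7, 72.4 and 59.4 FPKM and group 6 held 34.5, 40.5 and 38.1 FPKM. Group 10, of lumbar levels, held 31.1, 34.3 and 30.5 FPKM. At the ends, group 1 held 0.243, 0.388 and 0.400 FPKM and group 13 held 0, 1.58 and 0.755 FPKM, and no member of either group passed 1 FPKM in all 3 libraries. The Hoxa cluster held the most, at 147, 152 and 134 FPKM, and the Hoxd cluster the least, at 14.4, 14.1 and 15.3 FPKM.

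**Figure D5:**
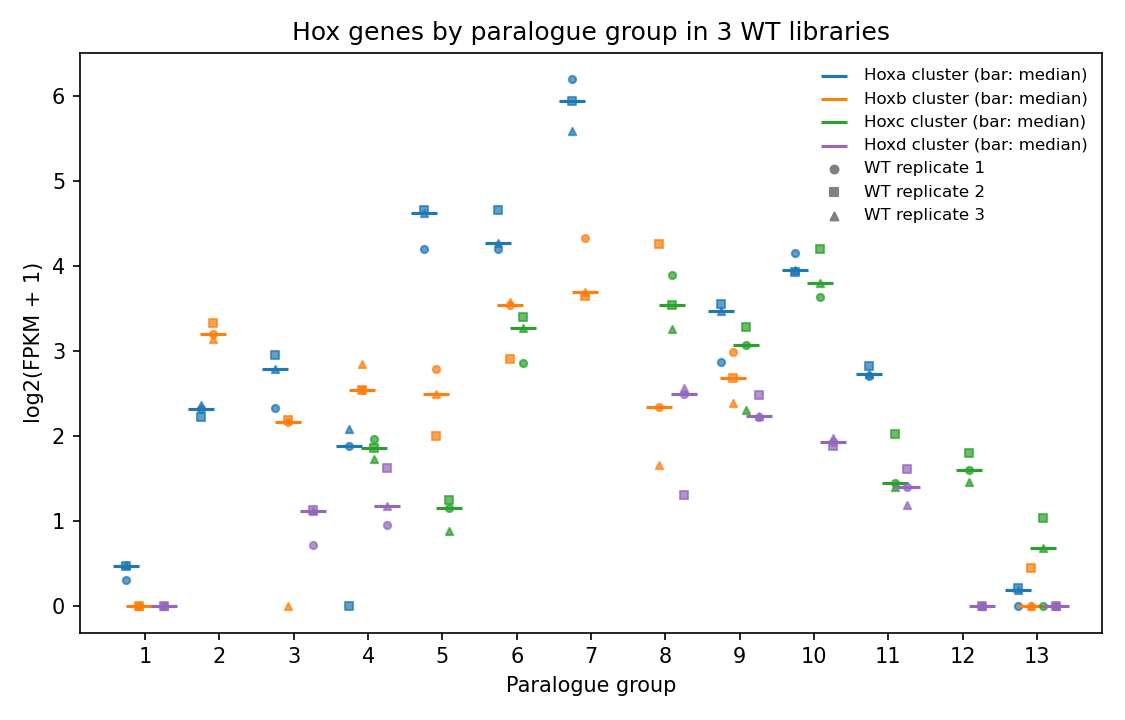
Hox gene level, as log2(FPKM + 1), by paralogue group for the 4 clusters, with 1 point per library and a bar at the median of each gene. Levels are highest at group 7, where Hoxa7 has a median of 60.9 FPKM, and lie at or near 0 in groups 1 and 13.

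The dorsoventral factors gave a mixed picture beside Olig2 and Nkx2-2, with 11 of 17 genes at 1 FPKM or more in all 3 libraries. Gsx1, a factor of dorsal progenitors, was at 28.8, 23.9 and 21.2 FPKM and Dbx2, of intermediate progenitors, at 8.12, 15.3 and 11.5 FPKM. The ventral factors Nkx6-1 and Nkx6-2 were at 6.42, 7.31 and 4.86 FPKM and at 5.10, 5.60 and 5.11 FPKM. Pax6 was at 1.93, 3.42 and 2.42 FPKM and Pax3 at 1.27, 1.73 and 1.78 FPKM, and Dbx1, Gsx2 and Nkx2-9 were listed at 0 in all 3. Factors of both dorsal and ventral progenitors were thus present. Olig2, which is also a defining marker of OPCs, was above Gsx1 in every library, while Nkx6-1 and Nkx6-2 were below Gsx1. The dorsal or ventral origin of the cells was not tested.

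Histone genes split by type. Of 15 replacement histone genes, whose messages are polyadenylated, 10 had a median of 1 FPKM or more, led by H2afz at 211, 231 and 310 FPKM and H3f3b at 205, 143 and 217 FPKM. Of 60 replication-dependent histone genes, whose messages end in a stem-loop, 8 did, and 44 were listed at 0 in all 3 libraries.

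The imprinted gene H19, transcribed into a long noncoding RNA from the maternal allele, was at 354, 382 and 228 FPKM, rank 87, the most abundant long noncoding gene. Igf2, its paternally expressed neighbour, was at 3.76, 5.75 and 1.82 FPKM, with H19 higher by 94.2, 66.5 and 125 times. Nnat, a small membrane protein of the developing brain, was at 213, 234 and 204 FPKM, and Cdkn1c, a CDK inhibitor, at 59.8, 62.0 and 54.0 FPKM. Of 21 imprinted genes, 16 were at 1 FPKM or more in all 3 libraries.

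Among the 10 most abundant long noncoding genes, 6 reached a median of 100 FPKM, and several host small nucleolar RNAs or overlap coding genes. After H19 came 2410006H16Rik at 210, 168 and 122 FPKM and Cct6a, a chaperonin locus that the annotation files under processed transcripts, at 266, 156 and 156 FPKM. Gas5, a host gene of small nucleolar RNAs, was at 46.0, 156 and 224 FPKM, 1110038B12Rik at 185, 88.0 and 127 FPKM and Gm11629 at 0, 490 and 109 FPKM. Malat1, a nuclear RNA, was at 24.1, 51.7 and 95.9 FPKM. Gas5 and Malat1 were both lowest in replicate 1 and highest in replicate 3. Ndufb1-ps, 1700012D14Rik and 2900097C17Rik completed the 10, at medians of 58.5, 42.5 and 40.7 FPKM.

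Within the 500 most abundant genes, the widest ranges came from genes that an assembly missed in whole or in part. Rps27 was listed at 0, 121 and 727 FPKM, and without a minimum length it was at 1982, 1080 and 727 FPKM. Cox7b, of cytochrome oxidase, was listed at 212, 158 and 0 FPKM, and without the minimum replicate 3 had 110 FPKM. Hnrnpf, a splicing regulator, was at 177, 6.82 and 152 FPKM with or without the minimum. Gm9843, a processed pseudogene, was listed at 0, 161 and 136 FPKM. The narrowest ranges after Mcm7 were those of the splicing factor Srsf2, at 138, 139 and 141 FPKM, and of Rpn2, a subunit of the oligosaccharyltransferase, at 125, 122 and 121 FPKM. Over all genes, those at 5 FPKM or more in both other libraries and at 0 in the remaining one numbered 47 for replicate 1, 33 for replicate 2 and 53 for replicate 3.

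Some genes known to be abundant in neural cells had no assembled transcript at all. Tuba1a and Tuba1b, alpha-tubulins with near-identical copies, were listed at 0 in all 3 libraries with or without the minimum length. Tubb2a was listed at 0, 0 and 341 FPKM, while its near-identical neighbour Tubb2b was at 638, 778 and 416 FPKM. All 14 quantified mitochondrially encoded genes were listed at 0, with 0 assembled transcripts on the mitochondrial chromosome. The ranks above are therefore ranks among the genes that these assemblies hold.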

How the data were processed

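The authors deposited 1 transcript assembly per library, in which each transcript has its exons, coverage and FPKM. The submitters' processing notes name the mm10 build, the aligner TopHat2 2.1.1, the assembler Cufflinks 2.2.1, Cuffdiff 2.2.1 and FastQC, and the sources used here do not give strandedness. Other values in the deposited attribute column, such as confidence bounds, were not used. Read counts were not analysed here, so depth is known only relatively and no counting interval is given.

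The deposited transcripts carry no gene names. Transcripts of 300 nt or more were matched by position and strand (or without strand) to the GENCODE M21 basic annotation on the same build. A gene was quantified if 200 or more of its exonic bases belong to no other gene (47691 genes). Its value is the mean over these bases of the summed FPKM of the transcripts lying on each of them. The code was tested on a simulated assembly, where it recovered the value of 1913 of 1913 genes. Exact intron matches used the full annotation. Forms of an alternative exon were counted from transcripts of 300 nt or more with that exact exon, or with an intron across it. Python 3.11.15, numpy 2.4.6, pandas 2.3.3 and matplotlib 3.10.9 were used.

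The members and the 30 gene lists (420 symbols written by hand, 419 of them quantified, and 6 lists by name pattern or chromosome) were chosen with earlier results of these data known. Genes named are the 30 most abundant, the 10 most abundant long noncoding genes, the leading and defining members of each list, the 5 with the widest and the 5 with the narrowest range of log2(FPKM + 1) among the 500 most abundant, and the 5 most abundant in no list. Gdpd2, Tuba1a, Tuba1b, Tubb2a, Gapdh, and all genes named below under other observations were named after their values were seen, as were some lower list members (Susd5, Emid1, Mog, Opalin, Ermn, Gpr37, Aspa). Some genes that this rule takes are not reported here, though the list counts include them. No test was run, because the 3 libraries form 1 group. Mean and SD are over 3 libraries, and genes listed at 0 in a library are given by library. Alternatives covered the length minimum, the gene value, the threshold, scaling and left-out libraries.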

Additional observations from a re-analysis of the deposited data

How the results depend on the processing

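With no length minimum, the protein-coding share of summed gene FPKM was 63.8%, the share of the 100 most abundant genes was 62.8% and 3 genes were in the top 100 of all 3 libraries, against 97.8%, 21.5% and 76. With a 500 nt minimum the protein-coding share was 98.4%. Among all quantified genes, the OPC list stood at the 96.4 percentile, against 86.0 among expressed genes. The other 44 alternative values of the 6 summary results moved by less than 1 SD or, for counts, by less than 1.5 times. Thresholds of 0.5 and 2 FPKM gave 11757 and 9961 genes in all 3 libraries.

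Leaving out a replicate gave 11222 to 11683 genes, protein-coding shares of 97.7% to 97.9%, top 100 shares of 19.7% to 22.6%, 82 shared top genes in each case, OPC percentiles of 85.3 to 86.7 and exact intron matches of 36.9% to 50.1%. Pdgfra was at 172 FPKM over assembled bases and at 174 FPKM as a sum over transcripts, against 112. No paired analysis was possible because the results come from 1 group and no test. Genes at 0 were not assembled, which does not show that they were not expressed.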

Other observations

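Further genes were highest in replicate 1, and these were chosen after their values were seen. The sensory neuron genes Calca, which encodes the peptide CGRP, Prph, an intermediate filament of peripheral neurons, and Sncg, a synuclein, were highest there. Calca was at 22.4, 0.338 and 0.651 FPKM in replicates 1 to 3. Prph was at 84.2, 10.7 and 11.2 FPKM, and Sncg at 107, 4.70 and 6.03 FPKM. Vgf, a neurotrophin-induced secreted protein, was at 233, 66.1 and 49.1 FPKM. Ngfr was at 25.4, 3.28 and 4.84 FPKM, and Prdm12, a factor of nociceptors, was listed at 2.99, 0 and 0 FPKM. Ngfr and Prdm12 are on the Schwann and neural crest list and so are among the 9 of 12 genes counted there. All 6 were above both other libraries in replicate 1, where Hbb-bs was also highest and Gfap lowest.

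The libraries differed in sex-linked genes. Xist, expressed from the inactive X chromosome, was listed at 15.4, 0 and 0 FPKM in replicates 1 to 3. The Y-linked genes Eif2s3y, Ddx3y and Uty were listed at 0 in replicate 1, and at 12.1, 6.96 and 1.62 FPKM in replicate 2 and 21.6, 9.90 and 3.05 FPKM in replicate 3. The labels used here do not give the sex of the pups, so sex, the shorter transcripts of replicate 1 and its gene levels cannot be told apart in these 3 libraries.

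Cntf, the gene of a factor that was supplied in the medium, was listed at 0, 0 and 23.1 FPKM.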
